A study of Rattus norvegicus with 4 samples.

Results

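The smooth muscle contractile genes described here are 10 named genes, Acta2, Actg2, Tagln, Cnn1, Tpm2, Lmod1, Myh11, Myl9, Mylk and Des, of the 13114 gene names in the deposited mRNA table. They were taken by name, and were chosen with earlier results of these data known. FPKM was summed over all listed transcripts of a name. It gives fragments mapped to a transcript, scaled to its length and to the depth of the library. The cells were primary cells from testes of Sprague-Dawley rats aged 5 to 10 days, labelled as Sertoli cells, which nurse the germ cells inside the seminiferous tubules, and they were used after passage in culture with serum. They were kept for 24 h with 0.5 mM the alkylphenol 4-nonylphenol (4-NP), a weak estrogen receptor ligand (2 libraries), or with 0 mM as control (2 libraries). Dose, age and passage are those the study's methods give, which name no vehicle for the cultures and no purity of the cells. The labels do not say whether the libraries of a group came from separate cultures or animals, so p-values measure the spread between these libraries, which may be technical.

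Smooth muscle shortens when filaments of myosin pull on filaments of actin. Calcium and calmodulin switch on a kinase that phosphorylates the light chain of myosin, tropomyosin and calponin lie along the actin filament, and intermediate filaments of desmin tie the apparatus to dense bodies and to the membrane. In the testis this set of proteins is known from the peritubular myoid cells, which wrap the tubules and push sperm along, and from the walls of blood vessels. Many of these genes are known to be switched on through the CArG box, a motif bound by serum response factor with its partner myocardin, and Acta2 also through MCAT elements, which TEAD factors bind.

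All 10 genes had lower FPKM in both 4-NP libraries than in either control library. The difference was 6.95-fold for Des and 34.8-fold for Acta2, the ends of the range over the 8 genes that were above 4 FPKM in every library, and each of these 8 fell. Actg2, Tagln and Tpm2 lay between these ends at 9.51-fold, 9.38-fold and 14.4-fold, and Cnn1, Myh11 and Myl9 were near the upper end at 30.4-fold, 32.4-fold and 34.7-fold. The tests were made with limma on log2(FPKM + 1) over all 8012 gene names with a mean of at least 1 FPKM, with Benjamini-Hochberg adjustment, and a gene rose or fell where the adjusted p was under 0.05. Of the 10 genes 9 were tested and 9 fell. Of all tested genes 47.8% changed, 23.1% fell and 24.7% rose. Both 4-NP libraries lay below both controls in 36.3% of all tested genes and above both in 40.1%. A log2 change on this scale understates the change of genes with low FPKM.

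The libraries held 104 and 96.6 M mapped reads (4-NP) and 116 and 119 M (control). Reads per gene could not be recovered from the FPKM, so no counting interval is given. The labelled cell type was unevenly marked. Of 11 Sertoli cell markers 10 were listed, and Sox9, Gata4 and Fshr were under 1 FPKM in every library. In control libraries Clu had 70.5 and 61.8 FPKM, Inha 17.0 and 15.7 FPKM and Cldn11 11.0 and 11.4 FPKM. Wt1, Dhh, Kitlg and Rhox5 lay between 1 and 5 FPKM in both controls. The 10 summed to 19.6 and 17.7 FPKM in 4-NP libraries and 109 and 101 FPKM in control libraries. In bulk RNA, fewer cells of a type and less RNA per cell cannot be told apart, and this holds for every gene below.

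Promoter sequence in RefSeq was found for 6 of the 10 genes, Acta2, Actg2, Tpm2, Cnn1, Des and Mylk. Its assembly, GRCr8, may not be the build of the deposited tables. Whether these genes share control was not tested. Each window ran from 250 bases before to 50 bases after the start of the gene, and sites outside it were not searched. No promoter of the 6 held an exact CArG box, which 1.64% of 33469 rat promoters held. With at most 1 letter off, a choice made after the exact search was seen, only Acta2 of the 6 held the box, against 21.3% of all promoters, and it held it in 2 places. The MCAT letters, CATTCC or on the other strand GGAATG, were in the promoters of Acta2 and Mylk, 2 of 6, against 14.2% of all promoters. The 4 matches are printed 5′ to 3′ on the strand of the gene with the matching letters in capitals, and they are matches of letters only.
Acta2 CArG-like, first letter 134 bases before the start, minus strand, chr1:241172618-241172647: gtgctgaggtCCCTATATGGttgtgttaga
Acta2 CArG-like, first letter 84 bases before the start, minus strand, chr1:241172568-241172597: tgtctttgctCCTTGTTTGGgaagcgagtg
Acta2 MCAT, first letter 196 bases before the start, minus strand, chr1:241172682-241172711: gagcagagcagaGGAATGcagtggaagaga
Mylk MCAT, first letter 36 bases before the start, minus strand, chr11:79498593-79498622: actgctgttgacCATTCCacctcaggaacc

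**Figure D1:**
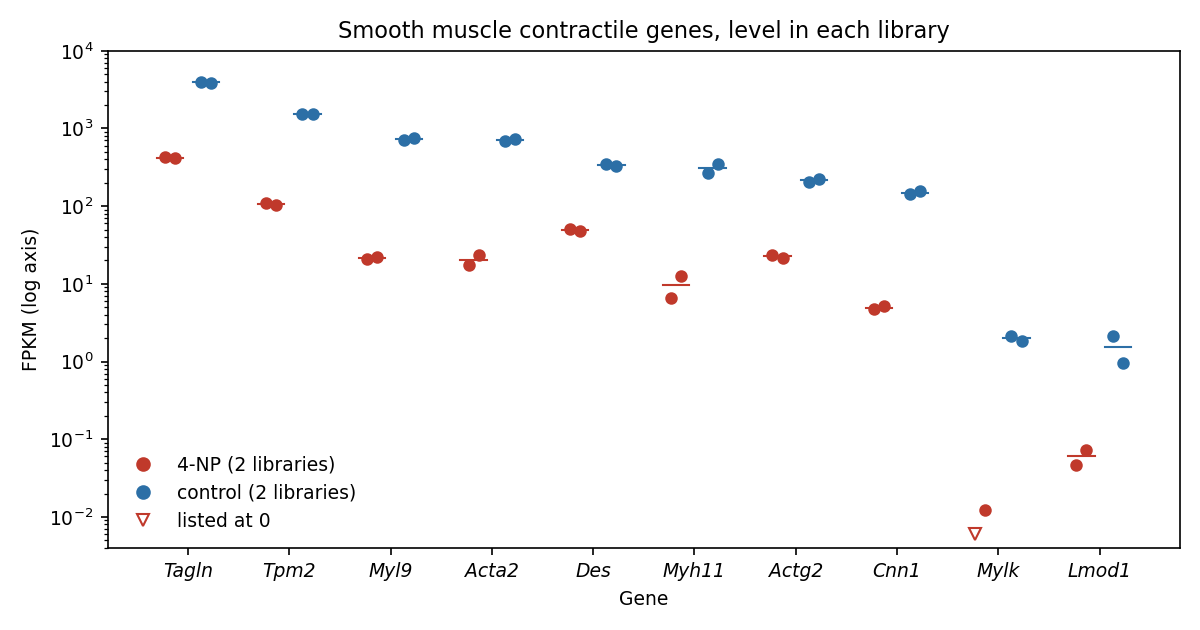
FPKM of the 10 smooth muscle contractile genes in each library on a log axis, with 4-NP libraries in red left of control libraries in blue, and a line at each mean (none for Mylk in 4-NP). In every gene both red points lie below both blue points, and Mylk was listed at 0 in 4-NP replicate 1.

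The actins of the thin filament differed in how far they fell. Acta2, the alpha actin of vascular smooth muscle and myoid cells, had 17.2 and 23.5 FPKM in 4-NP libraries, against 684 and 734 FPKM in control libraries. Both 4-NP libraries were far under both controls, and the spread within a group was small beside the gap between groups. The log2 change was -5.07 ± 0.17 (SE, adjusted p = 0.000842 by limma, 95% interval -5.54 to -4.59), the 12th lowest of the 8012 changes. Actg2, the gamma actin of visceral smooth muscle, had 23.8 and 21.3 FPKM in 4-NP libraries and 207 and 222 FPKM in control libraries. Its log2 change was -3.19 ± 0.09 (adjusted p = 0.000781 by limma, 95% interval -3.44 to -2.95), and this interval lay above that of Acta2. The ratio of Acta2 to Actg2 FPKM was 0.724 and 1.11 in 4-NP libraries and 3.31 in each control library. In the deposited coordinates, for which no source used here names a build, Acta2 lies on chromosome 1 at 252537615 to 252550394 with 9 exons on the minus strand, and Actg2 on chromosome 4 at 115215060 to 115239723 with 9 exons. The actin genes are alike in coding sequence and may share reads, so the split between them, also with Actb and Actg1 below, is uncertain. Their sequences were not compared here.

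Of the proteins bound to the thin filament, Tagln (transgelin, SM22-alpha), an actin-binding protein, was the most abundant. It had 426 and 412 FPKM in 4-NP libraries, against 3968 and 3901 FPKM in control libraries. It ranked 2nd of the 13114 gene names in both control libraries and 95th and 97th in the 4-NP libraries. The log2 change was -3.23 ± 0.05 (adjusted p = 0.00038 by limma, 95% interval -3.37 to -3.09). Tagln lies on chromosome 8 at 50222896 to 50228369 with 5 exons on the minus strand, and a second transcript, shorter but spanning 50223089 to 50231357, was listed at 0 in all but control replicate 2, where it had 0.112 FPKM.

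Cnn1 (calponin 1), which binds actin and slows the myosin motor, had 4.69 and 5.17 FPKM in 4-NP libraries and 142 and 157 FPKM in control libraries. The groups were widely apart, with a log2 change of -4.67 ± 0.09 (adjusted p = 0.000555 by limma). Tpm2 (beta-tropomyosin), which runs along the actin filament, had 109 and 104 FPKM in 4-NP libraries and 1554 and 1519 FPKM in control libraries. Its log2 change was -3.84 ± 0.05 (adjusted p = 0.00038 by limma). Cnn1 lies on chromosome 8 at 23113048 to 23121761 with 7 exons, and Tpm2 on chromosome 5 at 59016622 to 59025631 with 9 exons. A second Tpm2 transcript was far less abundant, at 0.897 and 1.16 FPKM in 4-NP libraries and 9.70 and 10.9 FPKM in control libraries, and it was lower in the same libraries as the main one.

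Lmod1 (leiomodin 1), which starts new actin filaments in smooth muscle, was scarce in every library. It had 0.0471 and 0.0733 FPKM in 4-NP libraries and 2.15 and 0.954 FPKM in control libraries, a 25.8-fold difference of means. Its mean of 0.806 FPKM over the 4 libraries kept it out of the test. With no filter on low values Lmod1 had a log2 change of -1.23 ± 0.27 (adjusted p = 0.0443 by limma), where 18.2% of all 13114 names fell.

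The motor of the thick filament and its light chain fell about as far as Acta2. Myl9, the regulatory light chain whose phosphorylation switches smooth muscle myosin on, had 20.8 and 21.8 FPKM in 4-NP libraries and 716 and 762 FPKM in control libraries. The log2 change was -5.05 ± 0.06 (adjusted p = 0.00038 by limma), the 15th lowest of all changes. Myh11, the smooth muscle myosin heavy chain and the motor itself, had 6.62 and 12.5 FPKM in 4-NP libraries, against 269 and 349 FPKM in control libraries. The 4-NP libraries differed by a larger ratio in Myh11 than in any other of the 8 genes above 4 FPKM in every library. Its log2 change was -4.92 ± 0.33 (adjusted p = 0.00222 by limma, 95% interval -5.87 to -3.97). The ratio of Myl9 to Myh11 FPKM was 3.14 and 1.75 in 4-NP libraries and 2.66 and 2.18 in control libraries, and the groups overlapped. Myl9 lies on chromosome 3 at 152857592 to 152863960 with 4 exons.

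Myh11 was listed as a pair of transcripts on chromosome 10 that overlap almost entirely, a 43-exon transcript at 764430 to 858894 and a 41-exon transcript at 764421 to 859184. The 43-exon transcript had 0.00308 and 0.000906 FPKM in 4-NP libraries and 217 and 286 FPKM in control libraries. It made up 80.9 and 81.9% of Myh11 in control libraries and under 0.05% in each 4-NP library. The 41-exon transcript had 6.62 and 12.5 FPKM in 4-NP libraries and 51.3 and 63.3 FPKM in control libraries, a 6.01-fold difference. In a fit of all transcripts it had a log2 change of -2.52 (adjusted p = 0.0104 by limma). The split of reads between overlapping transcripts is an estimate of the authors' software, and near 0 it can be a failed estimate, so the sum is the firmer value.

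**Figure D2:**
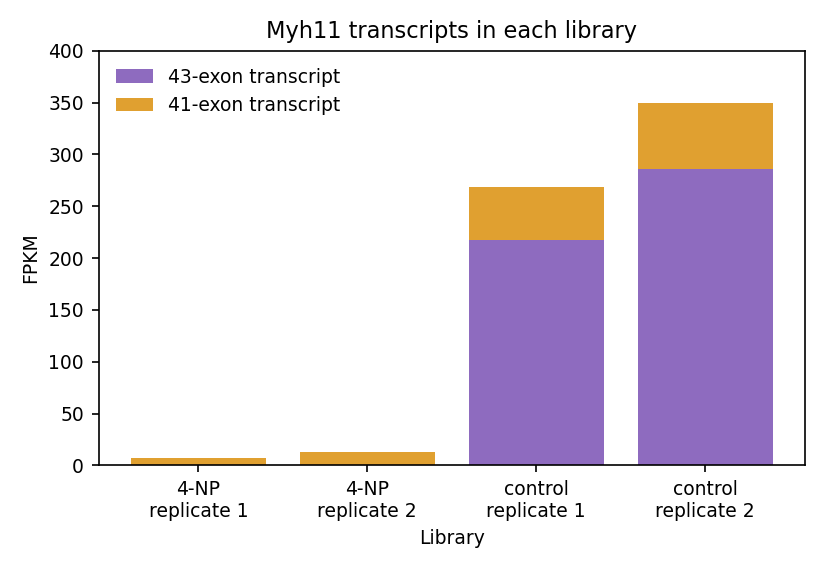
FPKM of the Myh11 transcripts stacked in each library, 4-NP left of control, with the 43-exon transcript in purple and the 41-exon transcript in orange. The 43-exon transcript makes up most of the bar in both controls, while the bars of the 4-NP libraries, at 6.62 and 12.5 FPKM, are almost wholly the 41-exon transcript.

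Mylk, the kinase that phosphorylates the light chain, was scarce, at 0 and 0.0122 FPKM in 4-NP libraries and 2.14 and 1.86 FPKM in control libraries. Its mean was 1.00 FPKM, just at the filter, which it passed only through the controls, so its test adds no support. The log2 change was -1.57 ± 0.16 (adjusted p = 0.00492 by limma) and moved to -7.07 with a pseudocount of 0.01. No fold is given, because Mylk was listed at 0 in 4-NP replicate 1. A single transcript of 32 exons was listed, on chromosome 11 at 69013050 to 69201380.

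Des (desmin), the intermediate filament protein of muscle, fell least among the 8 genes above 4 FPKM in every library. It had 51.2 and 47.2 FPKM in 4-NP libraries, against 351 and 333 FPKM in control libraries. The log2 change was -2.77 ± 0.07 (adjusted p = 0.000746 by limma, 95% interval -2.97 to -2.57), and of the intervals of the other 7 genes only that of Actg2 reached it. The ratio of Acta2 to Des FPKM was 0.337 and 0.498 in 4-NP libraries and 1.95 and 2.20 in control libraries. Des lies on chromosome 9 at 82556573 to 82564294 with 9 exons.

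Among all tested genes the contractile genes stood at the low end. Their median log2 change over the 9 tested was -3.84, where the median of all tested genes was 0.05 and the range was -7.25 to 8.54. Of the 9, 5 were among the 100 lowest changes and 8 among the 200 lowest. Of 389 genes with at least 100 FPKM in both controls, 44 had a mean more than 5 times lower in 4-NP libraries. Of these 44, 8 were contractile genes. The contractile genes were chosen with earlier results of these data known, so these ranks and counts add no independent support. The 10 genes together held 0.231 and 0.225% of all FPKM in 4-NP libraries and 2.98 and 2.89% in control libraries.

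**Figure D3:**
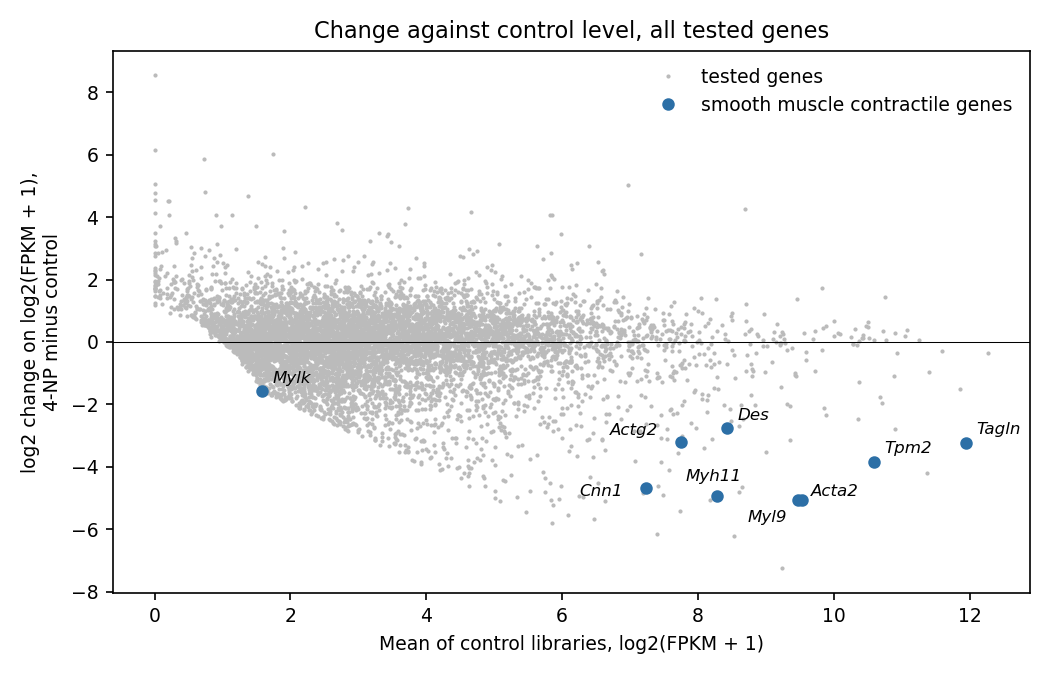
Log2 change (4-NP minus control, on log2(FPKM + 1)) of each of the 8012 tested genes against its mean in the control libraries on the same scale, with the 9 tested contractile genes in blue. The 8 abundant ones lie between -2.77 and -5.07, below most genes of like control level, and Mylk lies on the lower edge, where the level itself bounds the change.

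The order of the 10 genes differed between groups. In control libraries Tagln was highest, followed by Tpm2, then Myl9 and Acta2, which overlapped, then Des and Myh11, which overlapped, then Actg2 and Cnn1, and last Mylk and Lmod1, which overlapped. In 4-NP libraries Tagln and Tpm2 again led, Des was next, Actg2, Myl9 and Acta2 overlapped below it, and Myh11, Cnn1, Lmod1 and Mylk followed without overlap. The ratio of Tagln to Acta2 was 24.7 and 17.5 in 4-NP libraries and 5.80 and 5.32 in control libraries, and that of Tagln to Cnn1 was 90.9 and 79.8 in 4-NP libraries and 27.9 and 24.9 in control libraries. Tagln made up 64.6 and 63.6% of the summed FPKM of the 10 genes in 4-NP libraries and 50.3 and 48.9% in control libraries. The 95% intervals of the log2 changes of Acta2, Myl9, Myh11 and Cnn1 overlapped each other, and those of Acta2, Myl9 and Cnn1 lay wholly below that of Tpm2.

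One noncoding transcript ran against a contractile gene. Of the 265 lncRNAs listed, MSTRG.23736.1, on the plus strand of chromosome 8 at 50222975 to 50223749 with 2 exons, alone overlapped one of the 10 genes, and it lies within Tagln. It had 1.23 and 0.787 FPKM in 4-NP libraries and 14.7 and 13.4 FPKM in control libraries, 13.98-fold lower with 4-NP. This was 0.288 and 0.191% of Tagln FPKM in 4-NP libraries and 0.371 and 0.344% in control libraries. The table held only lncRNAs the authors marked as changed. The study calls its sequencing strand-specific and the transcript is assigned to the strand opposite Tagln, but the strand setting of the counting is not named in the sources used here, so how far reads of the pair were kept apart was not tested.

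Most contractile proteins have a form that cells other than muscle also use, and the smooth muscle form was compared with it within each library. For Acta2 against the cytoplasmic actins Actb and Actg1, the smooth muscle form made up 2.83 and 3.47% of their summed FPKM in 4-NP libraries and 26.1 and 24.7% in control libraries. Cnn1 made up 1.76 and 2.11% of Cnn1 plus Cnn3 in 4-NP libraries and 37.0 and 37.2% in control libraries. Cnn2, also planned for this comparison, was not listed, so it rests on Cnn3 alone. Cnn3, an acidic calponin, had 261 and 239.6 FPKM in 4-NP libraries and 242 and 264 FPKM in control libraries, and the groups overlapped. Myl9 made up 6.24 and 5.96% of Myl9 plus the nonmuscle light chains Myl12a and Myl12b in 4-NP libraries and 51.4 and 51.3% in control libraries.

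The other pairs moved the same way by different amounts. Tagln made up 61.4 and 60.4% of Tagln plus Tagln2 in 4-NP libraries and 90.3 and 89.7% in control libraries. Tpm2 made up 13.5 and 13.1% of the 4 tropomyosins in 4-NP libraries and 44.7 and 41.3% in control libraries, where Tpm3 itself varied between 14 and 112 FPKM in the controls. Myh11 made up 18.2 and 31.5% of Myh11 plus the nonmuscle heavy chains Myh9 and Myh10 in 4-NP libraries and 78.5 and 81.6% in control libraries. Des made up 10.7 and 9.96% of Des plus Vim (vimentin, the intermediate filament protein of mesenchymal cells) in 4-NP libraries and 18.3 and 15.8% in control libraries. In all of these pairs the share was lower in both 4-NP libraries than in both controls. The gap between the log2 changes of the smooth muscle form and its other forms summed was -0.81 ± 0.19 for Des, -2.53 ± 0.07 for Tagln, -3.33 ± 0.21 for Acta2, -3.96 ± 0.05 for Myl9 and -4.65 ± 0.17 for Cnn1 (± SD from the 2 libraries of each group). These gaps were not tested.

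**Figure D4:**
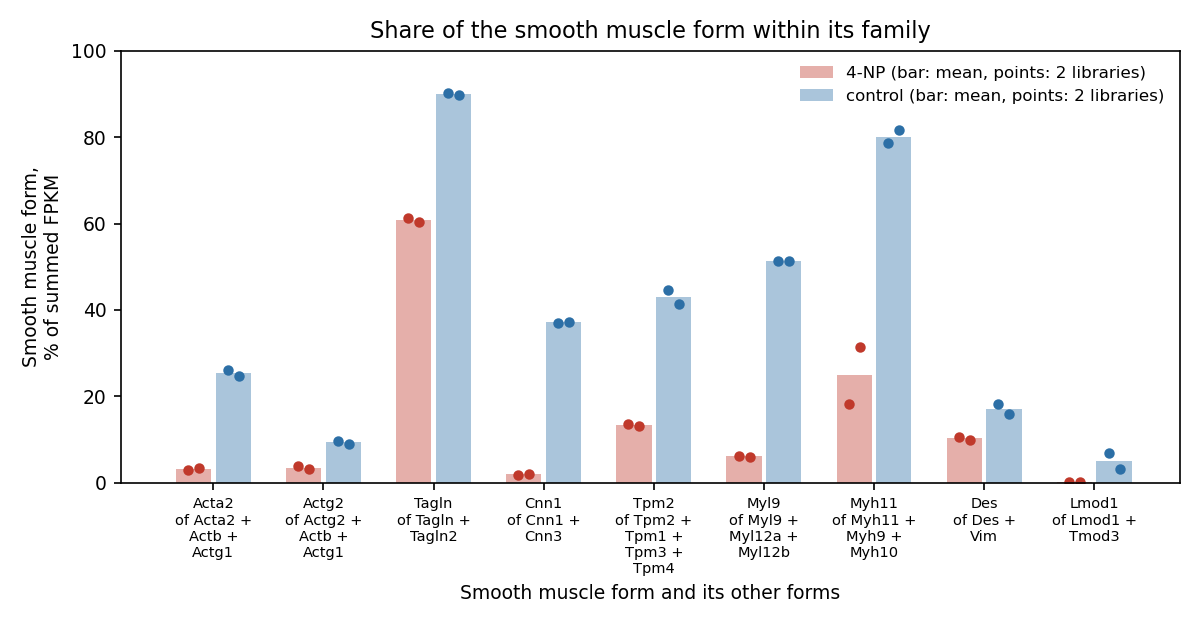
Share of each smooth muscle form in the summed FPKM of itself and its other forms, in percent, with bars at the group means and points for the 2 libraries of each group, 4-NP in red left of control in blue. The points of the groups do not overlap in any of the 9 comparisons, and the widest pair of points within 4-NP is that of Myh11, at 18.2 and 31.5%.

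The rest of the contractile pathway was read from lists of 114 other gene names, of which 97 were listed in the table and 71 tested. Of the 71, 38 fell, 2 rose and 31 did not pass the test, with a median log2 change of -0.89. Of all 8012 tested genes 23.1% fell and 24.7% rose, with a median log2 change of 0.05. These lists and the marker lists below were also chosen with earlier results of these data known, so their counts add no independent support. Of the 38, 33 had a 4-NP mean of at least 1 FPKM, so their 4-NP libraries alone reached the level of the filter. Among other thin filament genes 6 of 11 tested fell and none rose. Tpm1 (alpha-tropomyosin) had 67.2 and 78.2 FPKM in 4-NP libraries, against 620.0 and 689.9 FPKM in control libraries, a log2 change of -3.15 ± 0.11 (adjusted p = 0.000866 by limma), close to that of Tagln. Tpm4, a tropomyosin of nonmuscle cells, fell by 1.29 and Actb by 1.75 on the log2 scale. Among other myosin genes 3 of 6 tested fell. Myh10 (nonmuscle myosin IIB) fell by 1.34 and Myl12a by 1.10 on the log2 scale, and Myl6, the essential light chain, named after its values were seen, had 892 and 419 FPKM in the controls and did not pass without either 4-NP library (adjusted p = 0.105 without replicate 1 and 0.114 without replicate 2). Myl1, an essential light chain of fast skeletal muscle, had 3.14 and 2.63 FPKM in 4-NP libraries and 0.585 and 0.206 FPKM in control libraries and rose by 1.49 on the log2 scale, a call that was lost without 4-NP replicate 1 (adjusted p = 0.0628) or replicate 2 (adjusted p = 0.0541). Leaving out a library leaves 1 in its group, so the spread in such a fit comes from the other group alone, and the lone library is assumed to vary like it.

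Genes that set light chain phosphorylation, among them calmodulin and the myosin phosphatase, moved less. Of 15 tested 6 fell and 9 did not pass, with a median log2 change of -0.22. Calm2, a calmodulin gene, had 194 and 222 FPKM in 4-NP libraries and 418 and 467 FPKM in control libraries. Ppp1r12a, the targeting subunit of the myosin phosphatase, fell by 1.07 on the log2 scale. Without either 4-NP library or without control replicate 1 the count of genes that fell was 4.

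Genes of dense bodies, membrane plaques and filament anchoring fell in 15 of 19 tested, with a median log2 change of -1.91 and none that rose. Pdlim3 (actinin-associated LIM protein), which sits with alpha-actinin where actin filaments are anchored, had 4.13 and 3.75 FPKM in 4-NP libraries, against 207 and 216 FPKM in control libraries, a 53.7-fold difference and larger than that of any contractile gene for which a fold is given. Fhl2, a LIM-domain adaptor at focal adhesions, was 5.91-fold lower, and Csrp1, a LIM protein of smooth muscle, was 4.40-fold lower. Of 10 tested genes for calcium channels, receptors and caveolae 7 fell. Cav1 (caveolin-1), which shapes the membrane pits called caveolae, had 4.97 and 5.00 FPKM in 4-NP libraries and 172 and 184 FPKM in control libraries. Cavin1, which coats caveolae, was 4.51-fold lower, and Atp2b4, a calcium pump of the plasma membrane, was 17.9-fold lower at a control level of under 6 FPKM. Without either 4-NP library the count that fell was 5, and 4 of the 7, Atp2b4 among them, had a 4-NP mean under 1 FPKM and passed the filter only through the controls.

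Most transcription regulators of smooth muscle did not pass the test, so no common direction could be read from them. The list also mixes factors known to switch smooth muscle genes on with others known to repress them. Of 10 tested 1 fell, 1 rose and 8 did not pass, while 3 fell without control replicate 1 and 2 rose without 4-NP replicate 2. Klf4, a Krüppel-like factor known to repress smooth muscle genes, had 12.0 and 13.4 FPKM in 4-NP libraries and 4.42 and 4.78 FPKM in control libraries, a 2.75-fold difference (log2 change 1.29 ± 0.12, adjusted p = 0.00396 by limma). Tgfb1i1 (Hic-5), a focal adhesion adaptor that also acts in the nucleus, had 6.31 and 6.01 FPKM in 4-NP libraries and 12.3 FPKM in each control library, and fell by 0.89 on the log2 scale. Klf5, a related factor, had the third smallest p and did not pass (adjusted p = 0.0622 by limma), though it did with equal totals (0.0485), no trend (0.035) or without control replicate 1 (0.0462). Srf (serum response factor), which binds CArG boxes, had 5.29 and 2.94 FPKM in 4-NP libraries and 7.86 and 15.0 FPKM in control libraries and did not pass (adjusted p = 0.0768 by limma). Myocd (myocardin), its partner, was at 0.329 and 0.391 FPKM in 4-NP libraries and 0.462 and 1.28 FPKM in control libraries, below the level tested.

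**Figure D5:**
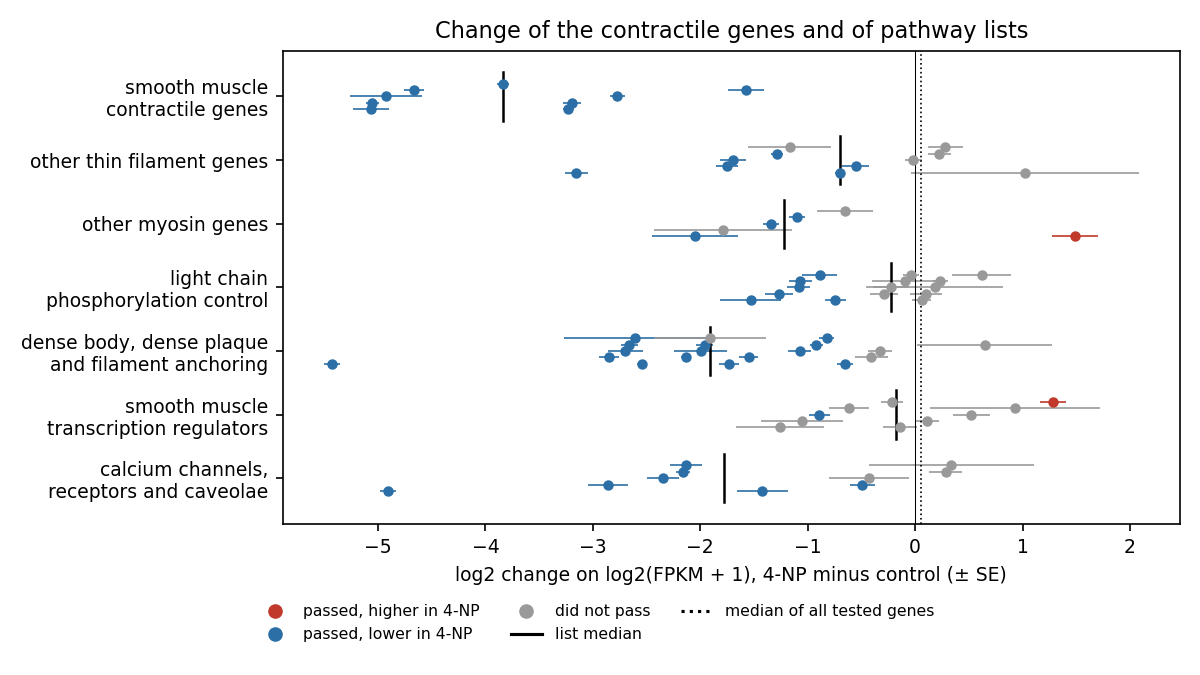
Log2 change (4-NP minus control, on log2(FPKM + 1), ± SE) of each tested contractile gene and of each tested gene in the 6 lists of other pathway genes, blue where a gene fell, red where it rose and grey where it did not pass. Black lines mark the list medians and the dotted line the median of all tested genes. The median of the contractile genes, -3.84, is lower than that of every other list, and the regulators lie on both sides of 0.

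Markers of the cell types that such cultures can hold moved too. Of 10 markers of mural and myoid cells outside the contractile set, all were listed, 6 were tested and 5 fell (Itga8, Mcam, Islr, Rgs5 and Cspg4, the last 3 named after their values were seen), while 3 were under 1 FPKM in every library. Their summed FPKM was 14.2 and 14.4 in 4-NP libraries and 243 and 248 in control libraries. Itga8, an integrin subunit of mural cells, carried most of it, at 1.41 and 1.29 FPKM in 4-NP libraries and 164 and 171 FPKM in control libraries, and Mcam was at 7.77 and 8.09 FPKM in 4-NP libraries and 61.6 and 59.1 FPKM in control libraries. Leaving out either 4-NP library lowered the count to 3, and 2 of the 5, Islr and Rgs5, passed the filter only through the controls. Of 7 stromal fibroblast markers 5 fell, and their sum was 706 and 754 FPKM in 4-NP libraries and 3285 and 3254 FPKM in control libraries. Col3a1 had 148 and 135 FPKM in 4-NP libraries and 2679 and 2605 FPKM in control libraries, whereas Dcn (decorin), named because it went the other way, had 445 and 494 FPKM in 4-NP libraries and 93.8 and 97.4 FPKM in control libraries and rose.

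Of the Sertoli cell markers Clu (clusterin) was 4.52-fold lower and Inha (inhibin alpha) 9.53-fold lower. The other 4 tested ones also passed the test but had 4-NP means under 1 FPKM and met the filter only through the controls, so the filter favoured that direction and they add no support. Of 12 skeletal and cardiac muscle markers 9 were listed and 3 tested. Tnnt2 alone passed, at a 4-NP mean under 1 FPKM, and did not without 4-NP replicate 1 (adjusted p = 0.0706) or replicate 2 (adjusted p = 0.0682). The summed FPKM of the 9 was 6.96 and 7.62 in 4-NP libraries and 12.4 and 9.19 in control libraries. Sums stayed at or under 22.3 FPKM in every library for 6 germ cell markers, at or under 8.32 FPKM for 5 macrophage markers and at or under 7.19 FPKM for the 3 listed endothelial markers. Of these only Id4, a germ cell marker, passed the test with a 4-NP mean of at least 1 FPKM, at 3.32 and 4.70 FPKM in 4-NP libraries and 8.78 and 9.02 FPKM in control libraries, and that call was lost without control replicate 1 (adjusted p = 0.0903) or replicate 2 (adjusted p = 0.0936). Of 4 listed Leydig cell markers 2 were tested, and Hsd3b1, Insl3 and Lhcgr were not listed. Star, which carries cholesterol into mitochondria, rose. It had 813 and 788 FPKM in 4-NP libraries and 309.8 and 305 FPKM in control libraries, while Akr1c14 fell by 4.33 on the log2 scale. The untested Cyp11a1 had 0.0883 and 0.142 FPKM in 4-NP libraries and 1.15 and 1.05 FPKM in control libraries. Cyp17a1 was under 1 FPKM in every library, so among the listed markers the level of Star stood apart. The part of each cell type in the lower levels of the contractile genes was not tested.

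The genes that are not contractile genes and lay nearest to the median of the 9 tested ones over the 4 libraries, by Euclidean distance of centred log2(FPKM + 1), were Olfml1 (distance 0.0516), Edn1 (0.0791) and Sept4 (0.122). Edn1 encodes endothelin-1, a peptide that contracts vessels. Edn1 was listed at 0 in both 4-NP libraries and had 13.3 and 12.4 FPKM in control libraries. Olfml1 had 0.0841 and 0.0242 FPKM in 4-NP libraries and 14.7 and 13.6 FPKM in control libraries, and Sept4, a septin, had 0.0121 and 0 FPKM in 4-NP libraries and 14.1 and 12.2 FPKM in control libraries. All of these were near 0 in 4-NP libraries, so the likeness is one of the size of the gap on this scale and not of level.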

How the data were processed

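RNA depleted of ribosomal RNA was sequenced in 2 4-NP and 2 control libraries, with groups and replicate numbers from the sample titles. The authors deposited FPKM per transcript for mRNAs and lncRNAs. For circRNAs the authors deposited read counts and a score scaled to mapped reads, used here only to read the mapped reads of each library. Ratios, p-values and q-values of the authors' own comparison in these tables were not used. HISAT2 and DESeq2 are in the submitters' processing notes. No source used here gives the build, the assembler or a version. Of 17290 mRNA rows, 1545 repeated a transcript and were dropped, and FPKM of the other 15745 was summed for each of 13114 gene names. Low FPKM times length fell within 0.05 of whole reads in 5.91 to 9.70% of values, where chance gives 10%, so reads were not recovered.

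Gene names with a mean of at least 1 FPKM were tested with limma 3.58.1 under R 4.3.3, two-sided, with a variance trend and group as the single term, on log2(FPKM + 1), with Benjamini-Hochberg adjustment over all 8012 at 0.05. The script was tested on simulated data. Fold values are ratios of mean FPKM. An exact permutation test of 2 against 2 cannot go below p = 0.333, so none was used. Members and lists were chosen with earlier results of these data known. Named were all 10 members, in each pathway list the genes with the 3 smallest p-values and any that passed against the direction of most, the main other forms, in each marker list the 2 genes highest in controls, and the 3 genes most like the members' median. A selection of these is printed. Alternatives were the scaling, the pseudocount, the filter, no trend, transcripts, another threshold, a block for the replicate number, and each library left out in turn. Python 3.11.15 with pandas 2.3.3, numpy 2.4.6 and matplotlib 3.10.9 was used.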

Additional observations from a re-analysis of the deposited data

How the results depend on the processing

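In every alternative tried the contractile genes that were tested fell. In 4 of these a library was left out, and the group left with 1 library was assumed to vary like the other. There were 9, but 10 with no filter on low values and 8 with the filter raised to 5 FPKM. Over all genes 3831 changed, 2404 to 2824 when each library was left out in turn, and 2132 with an unadjusted p under 0.05 and a log2 change beyond 1. Without 4-NP replicate 1 it was 2500 and without 4-NP replicate 2 it was 2404, with fewer libraries. The split was 1981 higher and 1850 lower, and with equal totals per library 1808 higher and 2009 lower. The median log2 change of the tested contractile genes was -3.84. It was -4.30 with a pseudocount of 0.1, -4.92 with 0.01, -3.53 with no filter and -4.25 with the filter at 5 FPKM, since low genes count differently under each, and -3.87 to -3.80 when each library was left out. The median gap between smooth muscle forms and their other forms was -2.53 over 9 comparisons, which took in Actg2 and, against Tmod3, Lmod1. It was -3.39 with a pseudocount of 0.1, -3.40 with 0.01, and -2.57 to -2.48 when each library was left out. The shift with the pseudocount came from Lmod1, near 0 in 4-NP libraries, whose gap went from -1.45 to -3.5 with 0.1. Other pathway genes that changed numbered 40, and 33 to 39 when each library was left out.

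Libraries with the same replicate number showed no shared deviation from their group means (correlation -0.01 over 8012 genes, 4-NP replicate 1 with control replicate 1). Whether they shared a culture or a preparation cannot be read from this value. With the number as a block 3216 genes changed in all, 9 contractile genes and 36 other pathway genes, and the median of the contractile genes was -3.84. No depth per gene was known, which limits what can be said of Mylk and Lmod1.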
